A study of Mus musculus with 12 samples.

Results

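The genes described here encode the proteins of the cytosolic ribosome. They were taken by name from the deposited gene table, as all symbols of the form Rpl or Rps with a number and an optional a or x, with the stalk genes Rplp0, Rplp1 and Rplp2 and with Rpsa, and without pseudogene symbols. The rule found 76 of 55903 genes, 46 for the large subunit and 30 for the small subunit, and used no measured value. RNA-seq of mouse liver gave 12 libraries in 3 groups of 4. The first group was young control liver. The second carries the title of an aged control, but its description reads doxo, taken here as doxorubicin, a chemotherapy drug that damages DNA. The labels do not settle which of age or drug it stands for, so it is called aged/doxo. The third group was treated with a compound known by the code KSL0608-Se, and its description names doxo too. The labels state no strain, dose or time. They do not tie libraries to animals either, and p-values therefore cover only the variation among libraries.

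The cytosolic ribosome is built from a small subunit, which decodes the messenger RNA, and a large subunit, which joins amino acids. Apart from the stalk proteins, each ribosomal protein is present in equal number in a ribosome, while the ribosomal RNAs form its catalytic core. The mRNAs of these proteins begin with a pyrimidine tract, the TOP motif, through which their translation follows mTORC1 activity. Liver makes the plasma proteins of the body and so holds many ribosomes. Free Rpl5 and Rpl11 can bind and restrain Mdm2, which links failed ribosome assembly to p53.

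Libraries were compared in TPM, a unit of transcript abundance that is scaled per length of transcript and sums to the same total in each library. Depth is unknown, since TPM does not keep it. The liver identity of the samples was clear from 10 hepatocyte markers, among them Alb, which summed to between 82953 and 116520 TPM. Young control library 1 and aged/doxo library 2 stood apart from the rest. In them 9568 and 9741 genes were listed at 1 TPM or more, beside 10263 to 11023 in the other 10 libraries. By mitochondrial share, young control library 1 was only just above the others. The share of mitochondrial transcripts in TPM was 12.4% in the former and 27.6% in the latter, and 8.10% to 11.9% in the other 10 libraries. In this bulk tissue, fewer cells of a type and less RNA per cell cannot be told apart.

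All 76 genes averaged at least 1 TPM, and none was listed at 0 in any library. Rpl13a, a large subunit protein, had the highest mean over the 12 libraries, at 1509 TPM. Rplp1, of the acidic stalk, averaged 1243 TPM and Rps2, near the mRNA entry channel, 1115 TPM. Rpl36 averaged 1057 TPM and Rps15, a small subunit protein at the decoding face, 1015 TPM. At the other end stood Rps23 at 162 TPM, Rps20 at 108 TPM, Rpl27a at 107 TPM, Rpl5 at 57.96 TPM and Rpl12 at 8.44 TPM. Proteins of one complex were thus listed at mRNA levels that differed widely.

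**Figure D1:**
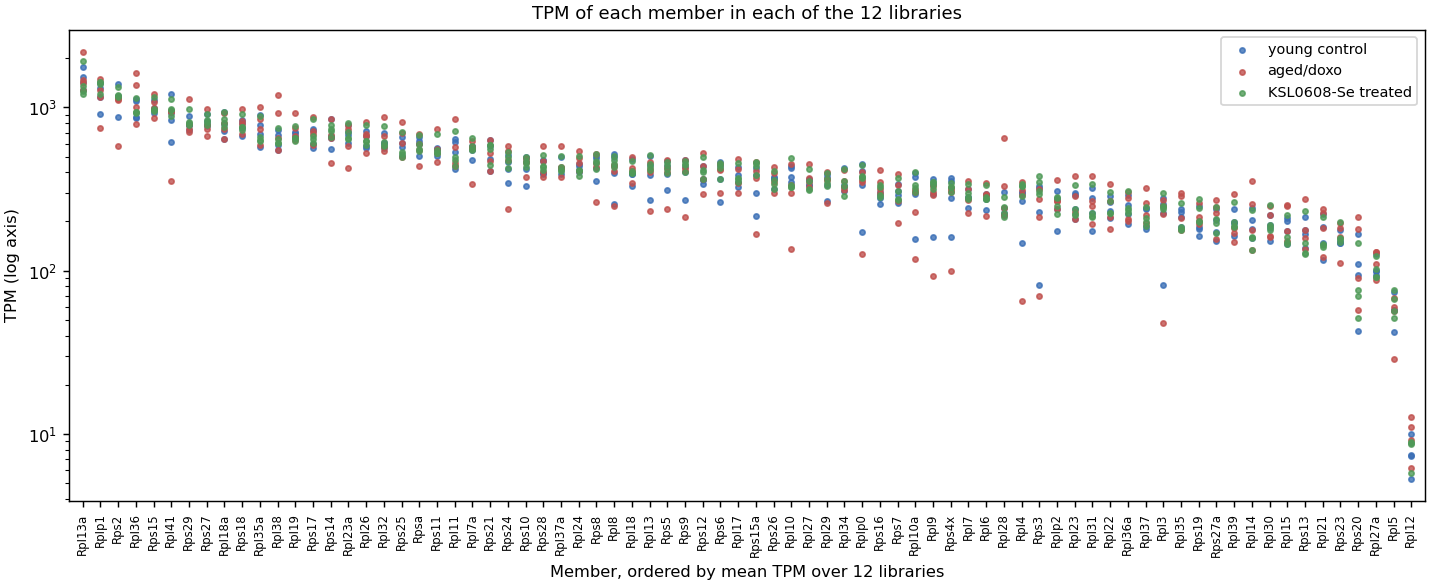
TPM of each of the 76 genes (log axis) in each of the 12 libraries, 1 point per library, coloured by group and ordered by the mean over libraries. Rpl12 lies below all the others, between 5.26 and 12.7 TPM, and the low points under Rpl3, Rpl4, Rps3, Rpl9 and Rplp0 belong to young control library 1 and aged/doxo library 2.

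Rpl13a lies on chromosome 7 from 45125558 to 45128761 (GRCm38) and holds 4 annotated small nucleolar RNA genes. It stood at 1535, 1281, 1438 and 1766 TPM in young control libraries 1 to 4, at 1279, 1407, 1462 and 2195 TPM in aged/doxo libraries 1 to 4, and at 1934, 1257, 1345 and 1202 TPM in treated libraries 1 to 4. Aged/doxo library 4 and treated library 1 were the highest, and the 3 groups overlapped. Rps15 was the steadiest gene, with a 1.39-fold distance between its highest and lowest library. Its values were 997, 968, 918 and 1117 TPM in young control, 865, 1071, 995 and 1201 TPM in aged/doxo, and 1152, 977, 955 and 961 TPM in treated libraries. Rpl36, a small protein of the large subunit, averaged 990.3 ± 141, 1197 ± 373 and 985 ± 103 TPM (SD, n = 4) in young control, aged/doxo and treated liver, with its highest value, 1630 TPM, in aged/doxo library 2. Rpl27a averaged 105 ± 15.1, 114 ± 20.4 and 102 ± 15 TPM, and Rps23, which sits in the decoding centre, 157 ± 14.7, 163 ± 37.3 and 166 ± 22.9 TPM.

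Rpl12, whose protein sits at the base of the stalk, lies on chromosome 2 from 32961559 to 32965345. It stood at 9.98, 7.26, 5.26 and 7.44 TPM in young control, 6.21, 12.7, 9.20 and 11.1 TPM in aged/doxo, and 8.81, 8.96, 5.73 and 8.66 TPM in treated libraries. Every one of these values was below every value of every other gene of the family, the next lowest being Rpl5 in aged/doxo library 2 at 28.9 TPM. The 2 rows named as pseudogenes of Rpl12 averaged 0 TPM, but copies under other symbols were not counted. Rpl5 itself had 42.1, 57.5, 57.2 and 73.6 TPM in young control, 59.7, 28.9, 68.2 and 56.6 TPM in aged/doxo, and 76.0, 51.5, 67.2 and 56.9 TPM in treated libraries. Its groups overlapped, with young control library 1 and aged/doxo library 2 the lowest.

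The summed TPM of the 76 genes was 3.07%, 3.27%, 3.18% and 3.81% of the total in young control libraries 1 to 4. It was 3.09%, 2.93%, 3.49% and 4.21% in aged/doxo libraries and 4.01%, 3.20%, 3.37% and 3.36% in treated libraries. The group means were 3.33% ± 0.329 (SD, n = 4), 3.43% ± 0.569 and 3.48% ± 0.357, closer to each other than the libraries of any group. Aged/doxo library 4 held the highest value of 41 of the 76 genes, and treated library 1 of 12. Aged/doxo library 2 held the lowest value of 34 genes but also the highest of 9. The ratio of summed large to summed small subunit TPM was 1.38 ± 0.0646 in young control, 1.41 ± 0.0919 in aged/doxo and 1.34 ± 0.0336 in treated libraries, and these ranges overlapped as well.

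**Figure D2:**
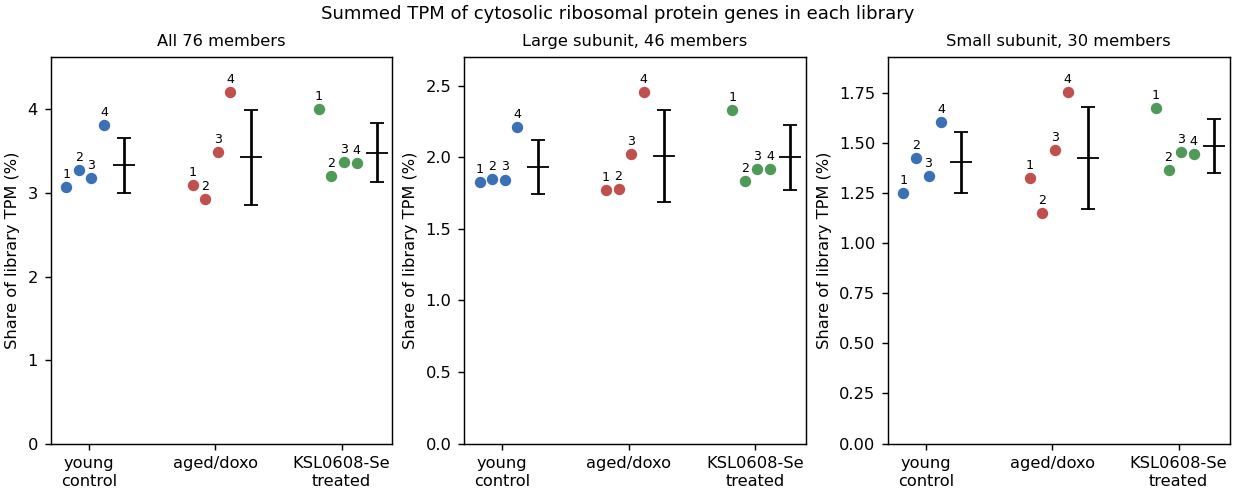
Summed TPM of all 76 genes, of the 46 large subunit genes and of the 30 small subunit genes as a percentage of each library's TPM. Points are libraries with their numbers, and bars are the mean ± SD of 4 libraries; library 4 is highest in young control and aged/doxo and library 1 in treated, and the groups overlap in every panel.

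The first comparison asks whether the mRNAs of ribosomal proteins differed between aged/doxo and young control liver. No member passed (0 of 76, limma adjusted p under 0.05 over 10883 genes; 0.00919% of all genes passed), and none had an unadjusted p under 0.05, which 1.98% of all genes had. The median difference of the 76 genes was 0.05 on the log2(TPM + 1) scale, beside -0.08 for all genes tested, and 50 of the 76 differences were positive, beside 35.2% of all genes. Under median-of-ratios scaling the median was 0.14, with 62 positive differences, under quantile normalization 0.08 and with a total that leaves out mitochondrial and the 50 most abundant genes 0.08. The 95% interval of the difference lay within 2-fold in either direction for 67 of the 76 genes. No gene of the family had separate groups, beside 1% of all genes. Leaving out aged/doxo library 4 turned the median to -0.07, so its sign rested on that library. Leaving out aged/doxo library 2 gave 0.12 with 71 positive differences, and leaving out young control library 1 gave 0.01 with 41.

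Rps16, a small subunit protein, had the smallest p among genes that were higher in aged/doxo liver. It stood at 290, 303, 257 and 278 TPM in young control libraries, beside 297, 347, 318 and 416 TPM in aged/doxo, with a log2 difference of 0.28 (95% interval -0.08 to 0.63, limma unadjusted p = 0.117, adjusted p = 1). Aged/doxo library 1 lay within the young control range and the other 3 above it. Rpl10, an X-linked gene whose protein completes the large subunit, had the smallest p in the other direction. It stood at 439, 351, 377 and 424 TPM in young control libraries, beside 300, 135, 334 and 451 TPM in aged/doxo. The log2 difference was -0.50 (95% interval -1.17 to 0.17, limma unadjusted p = 0.131, adjusted p = 1). Aged/doxo library 2 was its lowest library and aged/doxo library 4 its highest of these 8, so the groups overlapped. Among higher genes, the next by p were Rpl12 (0.34), Rpl38 (0.32) and Rpl28 (0.41), and among lower genes Rps2 (-0.25) and Rpl10a (-0.35), with limma adjusted p-values of 1 each.

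The second comparison asks whether KSL0608-Se treatment moved these genes relative to aged/doxo liver. None of the 76 passed (limma, adjusted p of at least 0.427; 0.00919% of all genes passed), and none had an unadjusted p under 0.05, beside 4.77% of all genes. The median gene of the family differed by 0.04 while the median of all genes tested differed by 0.30, and 12 of the 76 lay above that general median. Under median-of-ratios scaling, which sets the typical gene to no difference so that the median of all genes moved from 0.30 to -0.0032, the median of the family was -0.34, with 9 differences above 0 and 67 below. With the reduced total it was -0.17, with quantile normalization -0.15, and with aged/doxo library 2 left out it was -0.06. Its value also fell below 0 when treated library 1 (-0.05) or aged/doxo library 1 (-0.01) was left out. A fit that took each library's slope on deposited gene length as a covariate gave 0.07 for the family, with 62 positive differences. The median of all genes was then 0.02, so in that fit the family did not lie below the general median. The sign of the family's median difference therefore depended on the scaling and on each of these 3 libraries, and no gene passed under any of these settings.

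Rps2 was the only gene of the family whose groups did not overlap in this comparison (1 of 76, beside 3.13% of all genes). It lies on chromosome 17 from 24718116 to 24721929 and stood at 1103, 578, 1123 and 1145 TPM in aged/doxo and at 1329, 1150, 1183 and 1178 TPM in treated libraries. The gap between the highest aged/doxo and the lowest treated library was small, and young control liver, at 872, 1174, 1150 and 1394 TPM, spanned both. The log2 difference was 0.34 (95% interval -0.16 to 0.84, limma adjusted p = 0.428). Rpl10a, a large subunit protein of the flexible L1 stalk, had the smallest p, with a log2 difference of 0.58 (95% interval -0.16 to 1.32, limma unadjusted p = 0.113, adjusted p = 0.427). It stood at 312, 118, 304 and 229 TPM in aged/doxo and 301, 321, 334 and 400 TPM in treated libraries, so treated library 1 lay among the aged/doxo libraries. Rpl28 was the gene of smallest p in the lower direction, at 218, 645, 240 and 329 TPM in aged/doxo and 284, 244, 213 and 224 TPM in treated libraries (log2 difference -0.43, 95% interval -1.07 to 0.21, limma adjusted p = 0.428). Its highest value was aged/doxo library 2, and the groups overlapped.

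Treated liver was also compared with young control liver. None of the 76 genes passed (limma, adjusted p of at least 0.734; 0.0276% of all genes passed), none had an unadjusted p under 0.05, beside 3.4% of all genes, and no gene had separate groups, beside 4.02% of all genes. The median of the family was 0.07 and that of all genes 0.23, with 54 positive differences of 76 beside 84.0% of all genes. It became -0.21 under median-of-ratios scaling, with 4 positive and 72 negative differences, -0.08 under quantile normalization and -0.10 with the reduced total, and -0.02 without treated library 1. Rps15a had the smallest p, at 216, 422, 301 and 384 TPM in young control and 438, 386, 457 and 461 TPM in treated libraries (log2 difference 0.44, 95% interval -0.22 to 1.10, limma unadjusted p = 0.174, adjusted p = 0.734). Young control library 1 was lowest, library 2 lay within the treated range and library 4 just under it. Rps19, whose human counterpart is mutated in Diamond-Blackfan anaemia, stood at 163, 185, 179 and 250 TPM in young control and 275, 202, 241 and 200 TPM in treated libraries, which overlapped (log2 difference 0.25, limma adjusted p = 0.734). Rps13 stood at 176, 138, 168.5 and 214 TPM in young control and 232, 129, 147 and 127 TPM in treated libraries, where library 1 was the highest of the 8. In Rpl35, too, treated library 1 was the highest, at 238, 185, 213 and 228 TPM in young control and 258, 185, 179 and 177 TPM in treated libraries, and neither gene passed. The intervals lay within 2-fold for 64 genes in treated against aged/doxo and for 68 in treated against young control liver. These comparisons share libraries pairwise, so their values are not independent of each other.

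**Figure D3:**
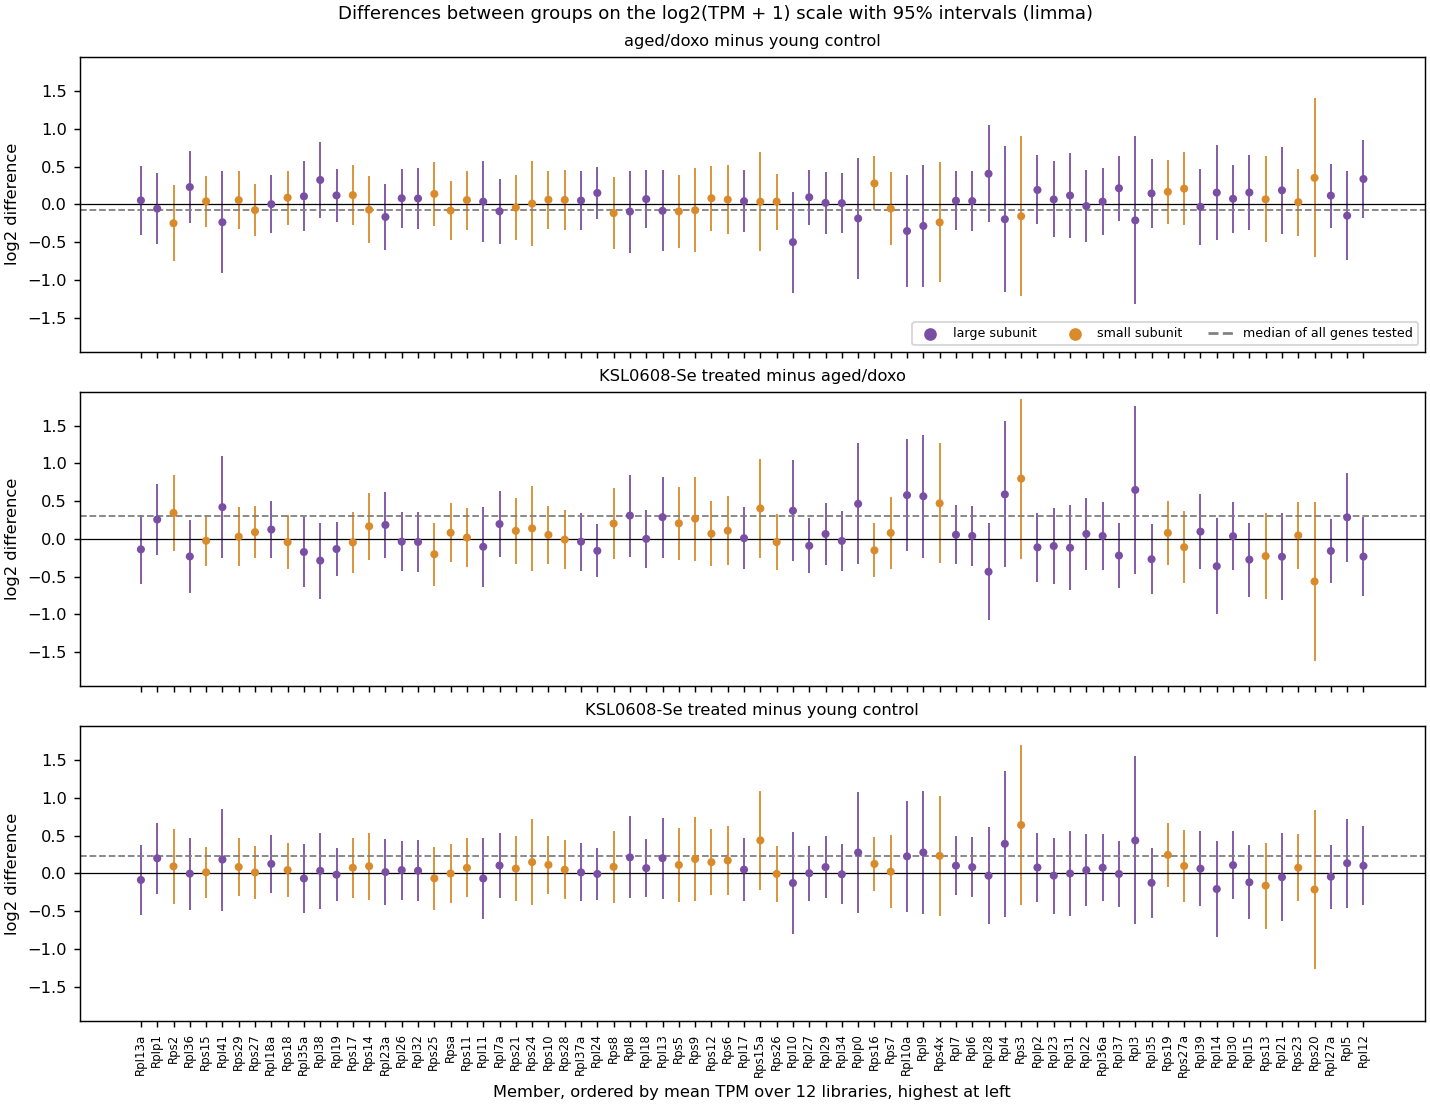
Difference between groups on the log2(TPM + 1) scale for each of the 76 genes, with the 95% interval from limma, in the 3 comparisons; purple marks large and orange small subunit genes, and the dashed line is the median of all genes tested. Every interval includes 0, and the widest belong to Rps3, Rpl3, Rps20 and Rpl4.

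The stalk proteins recruit elongation factors to the ribosome and act as a complex of Rplp0 with pairs of Rplp1 and Rplp2. Rplp0 stood at 173, 447, 336 and 408 TPM in young control, 399, 126, 359 and 350 TPM in aged/doxo, and 380, 373, 367 and 443 TPM in treated libraries. Rplp1 stood at 905, 1314, 1158 and 1415 TPM, then 1155, 753, 1282 and 1495 TPM, then 1423, 1214, 1383 and 1422 TPM in the same order. Both were lowest in young control library 1 and aged/doxo library 2. Rplp2 was low in young control library 1 only, at 174 TPM, and stood at 265 TPM in aged/doxo library 2, between the other values of its group (238, 266 and 357 TPM). The log2 differences of the 3 genes between treated and aged/doxo liver were 0.46, 0.26 and -0.11, with limma adjusted p-values of 0.45, 0.467 and 0.736.

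Rpl11, the partner of Rpl5 in the 5S particle that binds Mdm2, stood at 612, 422, 529 and 643 TPM in young control, 439, 456, 573 and 846 TPM in aged/doxo, and 715, 473, 496 and 435 TPM in treated libraries. Aged/doxo library 4 was highest and the groups overlapped. Between aged/doxo and young control liver Rpl11 differed by 0.04 (95% interval -0.50 to 0.57) and Rpl5 by -0.15 (95% interval -0.74 to 0.44), with limma adjusted p-values of 1. Rps6, the small subunit protein phosphorylated by S6 kinase below mTORC1, averaged 382 ± 88.3, 394 ± 65.8 and 422 ± 39.6 TPM (SD, n = 4) in young control, aged/doxo and treated liver. Rpsa, which also serves as a laminin receptor, averaged 595 ± 66.4, 566 ± 102 and 594 ± 63.2 TPM. Rps27a, whose precursor also carries ubiquitin, averaged 192 ± 37.4, 223 ± 49.4 and 205 ± 31.5 TPM. None of these 3 genes passed in any comparison (limma adjusted p of at least 0.742).

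The genes of the family did not move as a block in the libraries that stood apart. In aged/doxo library 2, 13 genes were lower by more than 1 log2 unit than the mean of the other 3 libraries of the group, and 7 were higher by more than 0.5. In young control library 1, 6 genes were lower by more than 1. Rpl3, which lines the peptidyl transferase centre, stood at 81.3, 277, 224 and 255 TPM in young control, 248, 47.7, 272 and 222 TPM in aged/doxo, and 239, 249, 245 and 299 TPM in treated libraries. Its 6.26-fold range over libraries was the widest of the family and came from these 2 libraries. Rps3, at the mRNA entry channel and also known in DNA repair, stood at 81.9, 330, 230 and 321 TPM, then 316.5, 69.8, 273 and 213 TPM, then 293, 308, 381 and 347 TPM. Rpl4, with a long loop into the exit tunnel, stood at 148, 302, 267 and 299.5 TPM, then 312, 65.5, 347 and 291 TPM, then 331, 288, 329 and 341 TPM. In each of these genes the same libraries were low, and the other 10 lay above them.

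Other members went the opposite way in the same libraries. Rpl38, a small protein of the large subunit known for its role in the translation of Hox mRNAs, stood at 730, 548, 591 and 678 TPM in young control, 546, 1194, 649 and 929 TPM in aged/doxo, and 749, 608, 606 and 641 TPM in treated libraries. Rpl14 stood at 240, 159, 180 and 204.5 TPM, then 133, 354, 178 and 257 TPM, then 235, 157, 160 and 134 TPM. Both were highest in aged/doxo library 2. Rps20, on chromosome 4 from 3831334 to 3835665, varied in most libraries, at 168, 42.7, 93.7 and 110 TPM in young control, 57.0, 181, 90.5 and 212 TPM in aged/doxo, and 148.5, 76.6, 70.4 and 50.9 TPM in treated libraries. Its spread was 4.95-fold, and each group held both high and low libraries.

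**Figure D4:**
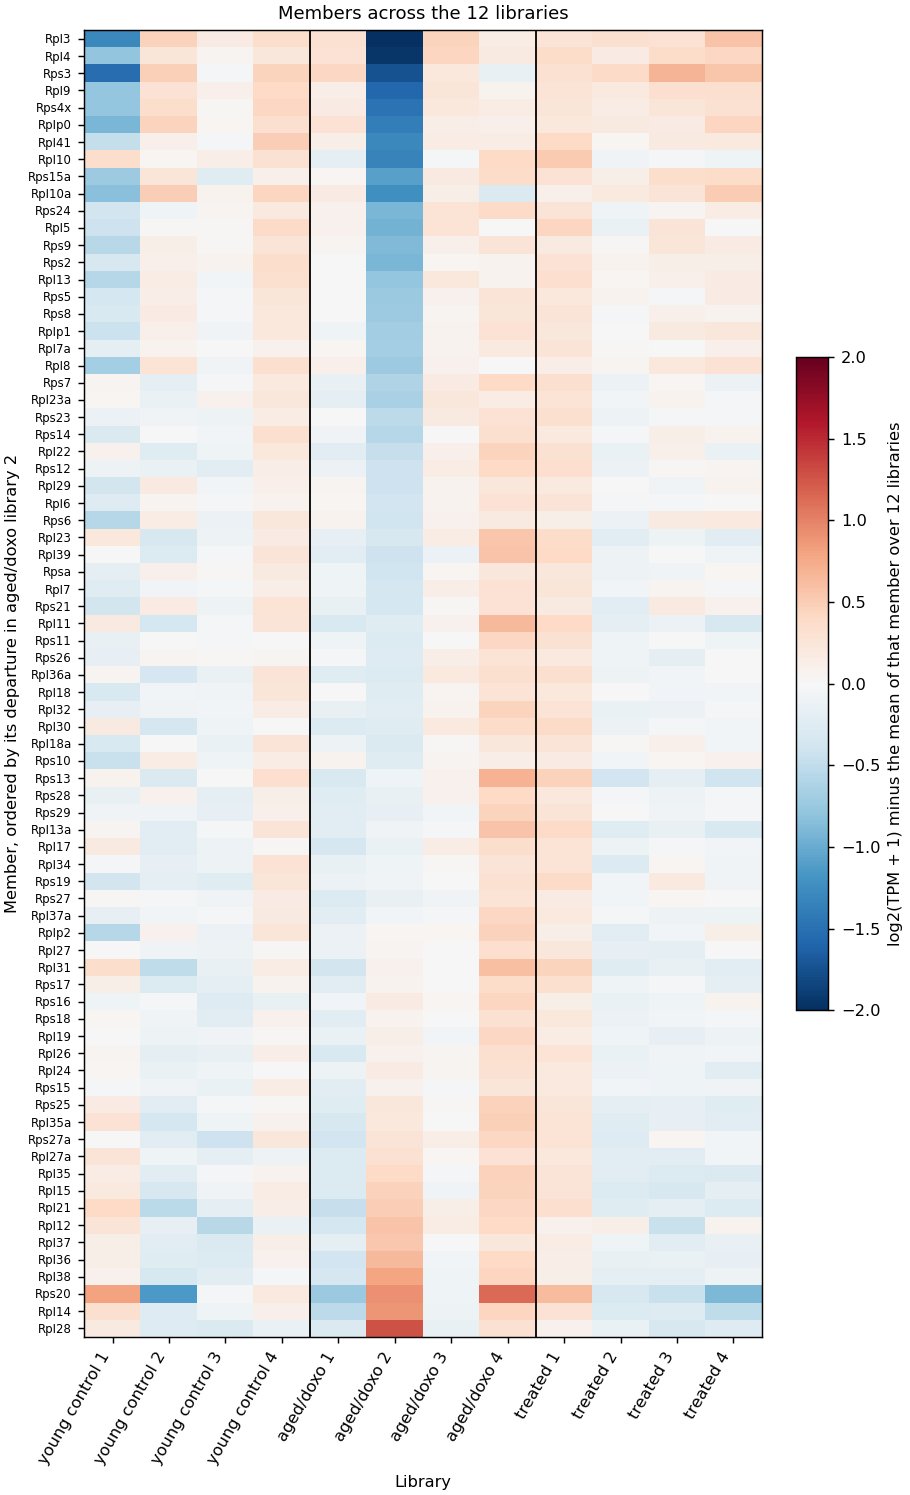
Each of the 76 genes (rows, ordered by departure in aged/doxo library 2) in the 12 libraries (columns), as log2(TPM + 1) minus that gene's mean over the 12 libraries; blue is lower and red higher, and the colour scale ends at 2 in both directions. The first rows, from Rpl3 to Rpl10a, are blue in aged/doxo library 2 and, except Rpl10, in young control library 1, while the column of aged/doxo library 4 is mostly red.

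Across the 76 genes, the departure of young control library 1 from its group and that of aged/doxo library 2 from its group had a Pearson r of 0.83, and 63 of the 76 had the same sign. This is a description across genes, which are not independent, and the 2 libraries share no sample. Departure and log2 coding length had an r of -0.38 in each library, but the order was not even. Of the 26 genes of longest coding sequence (564 to 1257 bases), 23 were lower in aged/doxo library 2, with a median departure of -0.84. Of the 25 of middle length (405 to 552 bases), 14 were lower, with a median of -0.13, and of the 25 shortest (75 to 399 bases), 17 were lower, with a median of -0.22. Other genes of the longest, middle and shortest range had medians of -0.80, -0.75 and -0.53. The family was thus near other genes in the longest range and less low than them in the middle and shortest ranges. Over all genes, the slope on the gene length given in the deposited table, which is not the coding length, was also examined. It was steepest in these 2 libraries, at -0.47 in each, beside -0.23 to -0.45 in the other 10. The mitochondrial share differed between these 2 libraries, at 12.4% in young control library 1 and 27.6% in aged/doxo library 2. The part of transcript length or of the mitochondrial share in the departures was not tested.

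**Figure D5:**
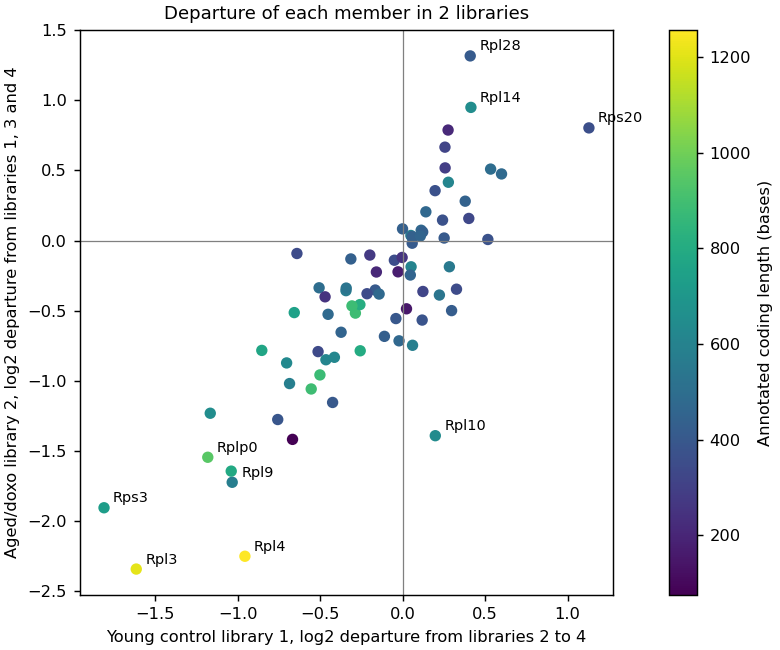
Departure of each of the 76 genes in young control library 1 (horizontal axis) and in aged/doxo library 2 (vertical axis), as log2(TPM + 1) minus the mean of the other 3 libraries of the same group, coloured by annotated coding length in bases. Rpl3, Rps3 and Rpl4 lie low on both axes, Rpl28 and Rpl14 lie high on both, and Rpl10 is low in aged/doxo library 2 alone.

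Without these 2 libraries, no gene passed in any comparison (limma adjusted p of at least 0.699) and none had an unadjusted p under 0.05. The median differences were 0.10 for aged/doxo against young control, -0.06 for treated against aged/doxo and 0.02 for treated against young control liver. The 95% interval then lay within 2-fold for 75 of the 76 genes in each comparison. Rpl9, a large subunit protein, stood at 162, 338, 296 and 365 TPM in young control, 303, 92.2, 328 and 291 TPM in aged/doxo, and 333, 317, 350.4 and 347 TPM in treated libraries. It was low in the same 2 libraries, and its log2 difference between aged/doxo and young control liver was -0.29 with all libraries, 0.14 without aged/doxo library 2 and -0.11 without both.

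A different pattern was seen in aged/doxo library 4, where all 76 genes were above the mean of the other 3 libraries of the group, by a median of 0.42. Other genes of all lengths there had a median departure of 0.06. In the shortest, middle and longest coding ranges, other genes had 0.36, 0.31 and 0.14, beside 0.48, 0.37 and 0.40 for the family. Treated library 1 was above the rest of its group in 70 of the 76, by a median of 0.28. Other genes of all lengths there had a median of -0.21, and 0.15, 0.06 and -0.14 in the same ranges. The family had 0.30, 0.35 and 0.22 in these ranges. Markers of Kupffer cells and macrophages (11 of 11 measured, none at 0 in all libraries) summed to 463 TPM in aged/doxo library 4, to 72.3 to 178 TPM in the other libraries of its group, to 177 to 314 TPM in young control and to 181 to 269 TPM in treated libraries. Lymphocyte markers summed to 14.25 TPM in aged/doxo library 4 and to no more than 8.98 TPM elsewhere. Only 1 of these 12 markers averaged at least 1 TPM, so the sum rested on low values. Stellate cell markers (129 TPM, at most 82.7 elsewhere), cholangiocyte markers (52.8 TPM, at most 43.9 elsewhere) and hepatocyte markers (116520 TPM, at most 108261 elsewhere) were also highest in aged/doxo library 4. Endothelial markers, at 93.7 TPM, and erythroid markers, at 2124 TPM, were not. Abundant genes weigh most in such sums, and single hepatocyte markers, such as Alb and Cps1, were not highest in that library. In treated library 1 the Kupffer and lymphocyte lists stood at 230 and 4.61 TPM. The part of these cells in the levels of the family was not tested.

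The family was spread over 19 chromosomes, with 14 genes on chromosome 7, and 29 genes held annotated small nucleolar RNA genes within their bounds. In aged/doxo library 2 the median departure was -0.47 for these 29 and -0.34 for the other 47, and in young control library 1 it was -0.04 and -0.05. Large and small subunit genes had medians of -0.35 and -0.39 in aged/doxo library 2, and of 0.05 and -0.19 in young control library 1. Within groups, the median SD of a gene of the family was 0.27 on the log2(TPM + 1) scale, beside 0.38 for 463 other genes in the TPM range of the family (148.5 to 1025 TPM, the central part of it). The family was thus steadier than the typical gene of that level, as a description without a test. The 463 genes were not matched to the family in length. In aged/doxo library 2, other genes of the shortest coding range also departed less than those of the longest (medians -0.53 and -0.80).

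The start of these genes is known for a pyrimidine tract around the first transcribed base, which later forms the TOP motif of the mRNA. RefSeq promoter windows (GRCm38.p6, 250 bases before to 50 after the annotated start) matched 56 of the 76 genes with 66 windows. The stretches below show 4 genes that were low in the libraries that stood apart (Rpl4, Rps3, Rps4x and Rplp0). They also show 4 that lay above the mean of the rest of their group in aged/doxo library 2 (Rpl14, Rpl15, Rpl28 and Rpl38). Of these 4, Rpl15 departed least, by 0.42, and aged/doxo library 4 reached the same level (250.9 TPM in library 2 and 250.2 TPM in library 4). For Rpl14 and Rpl15 the pattern was not kept once their pseudogenes were added, as given below. All 8 genes were chosen after the values were seen. Each runs 5′ to 3′ on the strand of the gene from 18 bases before to 12 bases after the annotated start, and capitals mark its longest run of C and T.
Rpl4: TCTTTCCTTTTCCTgtgggagcagccgggt
Rps3: acaCTTgcaagggtcgccgcgctgcgcggc
Rps4x: agTCTgaggctgggcggagcaacccaggct
Rplp0: gtcgTCTTCgggtttcgaggaccgcctggt
Rpl14: gcagggcgggCCCTCTCTCTTCTCgctgag
Rpl15: attgtgggagaaagCCTTCTTCCTTTCCTC
Rpl28: gtcccgcctctcgtgTCTCTCTTTCCgtct
Rpl38: ggaagcggaagcctcgTTCTTTCCCCgttc
They lie at chr9:64173369-64173398 (plus strand) for Rpl4, chr7:99483698-99483727 (minus) for Rps3, chrX:102189380-102189409 (minus) for Rps4x and chr5:115559449-115559478 (plus) for Rplp0. The others lie at chr9:120571499-120571528 (plus) for Rpl14, chr14:18270975-18271004 (minus) for Rpl15, chr7:4792947-4792976 (plus) for Rpl28 and chr11:114668562-114668591 (plus) for Rpl38.

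Rpl4, a low gene, and Rpl14, Rpl15, Rpl28 and Rpl38 show runs of 10 to 16 pyrimidines, and Rps3, Rps4x and Rplp0 show runs of 3 to 5. Within 40 bases on either side of the start, on the strand of the gene, 72.7% of the 66 windows held a run of at least 8 pyrimidines, beside 29.3% of 32851 windows of all genes. Median departures in aged/doxo library 2 were -0.35 for the 44 genes with such a run in any window and -0.48 for the 12 without. The genes not shown that were lower there by more than 1 log2 unit were mixed. Rpl5, Rpl9, Rpl10a, Rps9, Rps15a and Rps24 had such a run, and Rpl10 and Rpl41 did not. Of genes not shown that were higher by more than 0.5, Rpl37 had such a run and Rpl12 did not. On both strands of the whole window, the ETS-family motif CCGGAAG stood in 36.4% of the windows of the family and 8.86% of all, and the YY1 motif AAGATGGC in 10.6% and 2.75%. The GC box GGGCGG stood in 60.6% and 35.7%, the MYC E-box CACGTG in 12.1% and 7.15%, and the pyrimidine-rich CTTTCC, which can lie inside a pyrimidine run, in 50% and 26.6%. The TATA box TATAAA stood in 9.09% and 13.6%, and CCAAT in 31.8% and 37.4%. These matches describe letters in the windows and not bound sites.

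Ribosomal protein genes have many processed copies, and reads can be split between a gene and its copy. The table held 319 rows named as pseudogenes of Rpl or Rps genes, and together they averaged 0.335% of TPM. Of the 76 genes, 61 had such rows, and a few rows carried the name of a gene outside the family. For 6 genes (Rpl10, Rpl28, Rpl31, Rpl36a, Rps16 and Rps23) the named pseudogenes averaged more TPM than the gene, and for 13 they averaged at least 50 TPM, so the levels of these genes are uncertain. Copies listed under other symbols were not counted. The levels of the remaining genes, the low Rpl12 and Rpl5 among them, could therefore be affected too. The pseudogenes of Rps23 averaged 359 TPM beside 162 TPM for Rps23 itself. Summed with its pseudogenes, Rpl28 stood at 503.7, 1475, 620 and 937 TPM in aged/doxo libraries, where library 2 was again the highest. For Rpl10 the sum was 858, 561, 897 and 996 TPM, with library 2 again the lowest. For other genes the sum did not keep the pattern. Summed with its pseudogenes, Rpl14 stood at 352, 405, 381 and 403 TPM in aged/doxo libraries, so library 2 was hardly above library 4. Rpl15 summed to 320, 302, 324 and 421 TPM, and library 2 was then the lowest of the group.

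Rps3a1 and Fau encode ribosomal proteins but are not caught by the name rule. Rps3a1 averaged 309 ± 68.8, 298 ± 108 and 347 ± 32.2 TPM (SD, n = 4) in young control, aged/doxo and treated liver. Fau, whose product carries eS30, averaged 547 ± 101, 596 ± 70.3 and 584 ± 35.3 TPM. Neither passed in any comparison (limma). Of 9 paralogs, 6 averaged at least 1 TPM and none passed. Rpl10l was listed at 0 in all 12 libraries, and Rpl3l and Rpl39l did not exceed 0.32 and 0.18 TPM.

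Rps27l, a paralog of Rps27 that p53 is known to induce, stood at 626, 418, 552 and 554 TPM in young control and 592, 775, 675 and 861 TPM in aged/doxo libraries. Aged/doxo library 1 lay below young control library 1, so the groups overlapped. The log2 difference was 0.43 (limma unadjusted p = 0.049, adjusted p = 1), and treated liver lay between, at 626 ± 125 TPM (SD, n = 4). Rps27 itself averaged 826 ± 61.7, 790 ± 133 and 833 ± 56.5 TPM in young control, aged/doxo and treated liver. Rpl22l1, the paralog of Rpl22, averaged 59.2 ± 8.72, 70.4 ± 38.1 and 73.5 ± 22.9 TPM, beside 248 ± 34.1, 249 ± 69.0 and 256 ± 38.2 TPM for Rpl22.

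Other genes of translation were read from lists, and none passed in either direction in any comparison (limma, adjusted p under 0.05). These were 17 elongation factors and other TOP mRNAs, 30 initiation factors, 38 assembly and nucleolar factors, 19 tested genes of RNA polymerase I and III, 18 of the mTORC1 and MYC axis, 14 of ribosome rescue and 79 mitochondrial ribosomal protein genes. Between treated and aged/doxo liver their medians were 0.33, 0.47, 0.26, 0.38, 0.29, 0.40 and 0.21 in that order, beside 0.30 for all genes and 0.04 for the cytosolic ribosomal proteins. Without the libraries that stood apart these medians were 0.05, 0.13, 0.06, 0.12, 0.15, 0.20 and -0.03, beside 0.13 for all genes and -0.06 for the family. Eef1a1, the main elongation factor, stood at 1212, 3043, 2324 and 2703 TPM in young control, 2848, 739, 2886 and 2168 TPM in aged/doxo, and 2674, 2979, 3068 and 3163 TPM in treated libraries. It was lowest in the same 2 libraries as Rpl3, and its treated against aged/doxo difference was 0.64 (limma adjusted p = 0.427).

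Over the 12 libraries, the genes outside the family whose log2(TPM + 1) was most like the family mean were Churc1 (Pearson r = 0.968), Rras (0.950), Smdt1 (0.950), Anapc11 (0.931) and Sod1 (0.923), among 4196 genes of at least 10 TPM on average. Sod1, a cytosolic superoxide dismutase, averaged 2191 TPM and Smdt1, a part of the mitochondrial calcium uniporter, 155 TPM. These correlations are descriptions over the 12 libraries, and were chosen as the highest of many.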

How the data were processed

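The authors deposited 1 table of TPM for 55903 genes in 12 mouse liver libraries, made with fastp, HISAT and RSEM per the submitters' processing notes (no versions, roles or order). The build, annotation release and strandedness were not given in the sources used here, and overlapping antisense genes and near-identical copies are uncertain. Positions, coding lengths and small nucleolar RNA genes come from GENCODE M21 (GRCm38), matched by gene identifier. TPM keeps no depth, so no counting error could be given, and the number of libraries limits the precision.

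Values were analysed as log2(TPM + 1) in the 10883 genes with a mean of at least 1 TPM, a scale on which low genes show too small a fold. With limma 3.58.1 (R 4.3.3), group was fitted to all 12 libraries with a variance trend, two-sided, with Benjamini-Hochberg adjustment over all genes and a threshold of 0.05, and was tested on simulated data. The members and lists were chosen with earlier results of these data known, so no p is given for a score over the family. Values per library or group means are given for the 5 genes of highest and lowest mean, those of smallest p, those departing most from the family median in a comparison, and genes of known roles, in the groups compared. Chosen after their values were seen were the genes whose sequences are shown, Rpl15, Rps4x and Eef1a1. No 2 libraries were identical. Alternatives covered the pseudocount, filter, scaling, a replicate block, a length covariate, fits of 2 groups alone and left-out libraries. Plots used matplotlib 3.10.9 (Python 3.11.15).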

Additional observations from a re-analysis of the deposited data

Results flagged for a closer look

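The values of 32 members named by level, role, small p or departure from the family median, and 3 measures of each library, were examined in each group of 4. In 10 of these 105 cases, 1 library lay far from the other 3 (gap over range above Dixon's 95% critical value). Chance flags about 1 in 20 groups that are independent and not selected. The members were in part chosen for their departures and vary together across libraries, so the count cannot be set against that rate. In treated liver the highest library was set apart for Rpl10 (490.72 TPM), Rpl35 (257.69 TPM), Rpl36 (1138.92 TPM), Rps15 (1152.35 TPM) and Rps23 (199.81 TPM), each time library 1, and for Rpl3 (298.7 TPM), library 4. The lowest treated library was set apart for Rpl12 (5.73 TPM), library 3. In aged/doxo liver, library 2 was set apart as the lowest for Rpl9 (92.22 TPM) and Rps2 (577.97 TPM). In young control liver, library 4 was set apart as the highest for Rps23 (178.47 TPM).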

How the results depend on the processing

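No member passed in any of the 24 settings of each comparison (limma, adjusted p of at least 0.214), and at most 2 had an unadjusted p under 0.05. The median difference of treated against aged/doxo liver moved to -0.3398 with median-of-ratios scaling and -0.1684 with the reduced total, and that of treated against young control liver to -0.2119 with median-of-ratios scaling. The summed share was 7.935%, 8.352% and 7.345% of the reduced total in young control, aged/doxo and treated liver, and 3.002% in treated liver with median-of-ratios scaling. With the length slope as a covariate, treated against aged/doxo differences changed sign for Rpl14 (0.1248), Rpl3 (-0.08058), Rpl35 (0.03506) and Rps20 (0.38), and treated against young control differences for Rpl14 (0.1205), Rpl3 (-0.05305), Rpl35 (0.07985), Rps13 (0.03628) and Rps20 (0.4215). Median-of-ratios scaling shifted the whole family in treated against young control liver, from 54 to 4 positive differences of 76, so that Rps19 (-0.03805) changed sign along with many others. Rps20 changed sign when both libraries that stood apart were left out (0.06998). The cause of these changes was not tested. With 1 library left out in turn, the aged/doxo against young control difference ranged from -0.5445 to 0.1447 for Rpl9 and from -0.01565 to 0.6995 for Rps20, and the treated against young control difference of Rps20 from -0.5794 to 0.06998.

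The replicate numbers did not pair the libraries: same-numbered libraries had correlations of deviations between -0.5804 and 0.3926, and 2 of 12 libraries correlated best with their own number. With the replicate number as a block, 0 members passed in each comparison. Every group holds each number, so the block cannot change a difference, and the medians stayed at 0.04577, 0.0376 and 0.07229.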
